A study of Mus musculus with 4 samples.

Results

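The genes described here encode the scaffold of the excitatory postsynapse, and their expression was followed in female mouse neural stem cells with and without Smchd1, a noncanonical SMC protein with a known role in X inactivation. The 10 members, Dlgap1, Dlgap2, Dlgap3, Dlgap4, Dlg2, Dlg4, Shank1, Shank2, Shank3 and Homer1, were found by symbol among the 25965 entries of the authors' count table. They had been chosen by family after the deleted against control comparison was known, in which Dlgap1 was called higher. The values of that comparison are therefore given as a description of the members and carry no test of them.

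Neural stem cell lines were made from E14.5 embryos of a C57BL/6, 129 and Castaneus (Cast) mix. All cells carried 1 deleted Smchd1 allele, a maternal 129 X chromosome with an Xist deltaA allele, listed as Xist 129-KO, and a paternal X from Castaneus with intact Xist. The deleted group, Smchd1 del/del, was transduced with the retrovirus MSCV-Cre-puro, given puromycin from 24 h and harvested 7 days after transduction. The control group, Smchd1 del/fl, was the untransduced part of the same lines, so loss of Smchd1 cannot be told apart from transduction and selection. The data held 4 libraries, 1 control and 1 deleted library from each of 2 lines, called A and B here. Total counts ran from 29873400 to 34018500 per library. Smchd1 itself was counted 2779 times in control A, 3461 in control B, 785 in deleted A and 852 in deleted B, a fitted ratio of 0.256 of deleted over control. The count covers the whole gene, and reads of a transcript without the deleted exons would also enter it.

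The postsynaptic density is a protein lattice under the membrane of excitatory synapses. PSD-95, the product of Dlg4, binds glutamate receptors and adhesion proteins through PDZ domains. The DLGAP proteins, also called GKAP or SAPAP, bind PSD-95 on one side and SHANK proteins on the other, and Homer proteins link SHANK to group I metabotropic glutamate receptors and to calcium channels of the endoplasmic reticulum. These genes are best known from neurons, and several are also transcribed in glia and in dividing progenitors.

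Promoter sequences are shown for Dlgap1, Dlgap3 and Shank3, the members with a called change in the comparison below. Each is the 250 bases before a RefSeq transcript start (GRCm38.p6, which has mm10 coordinates), on the plus strand and written 5′ to 3′, with every CG dinucleotide in capitals. The windows lie at chr17:69968823-69969072 for Dlgap1, chr4:127172630-127172879 for Dlgap3 and chr15:89499358-89499607 for Shank3. That of Dlgap3 falls inside the span the count table gives for the gene.
Dlgap1: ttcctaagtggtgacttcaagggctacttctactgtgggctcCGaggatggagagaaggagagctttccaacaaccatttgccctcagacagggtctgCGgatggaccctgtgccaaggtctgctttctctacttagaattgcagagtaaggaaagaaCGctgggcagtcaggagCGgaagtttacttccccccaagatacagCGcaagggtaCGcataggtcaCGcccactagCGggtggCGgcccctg
Dlgap3: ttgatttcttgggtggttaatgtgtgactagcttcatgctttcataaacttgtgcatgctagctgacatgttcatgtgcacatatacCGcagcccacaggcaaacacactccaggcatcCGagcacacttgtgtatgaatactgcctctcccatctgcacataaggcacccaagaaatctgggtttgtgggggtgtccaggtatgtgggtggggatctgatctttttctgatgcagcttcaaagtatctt
Shank3: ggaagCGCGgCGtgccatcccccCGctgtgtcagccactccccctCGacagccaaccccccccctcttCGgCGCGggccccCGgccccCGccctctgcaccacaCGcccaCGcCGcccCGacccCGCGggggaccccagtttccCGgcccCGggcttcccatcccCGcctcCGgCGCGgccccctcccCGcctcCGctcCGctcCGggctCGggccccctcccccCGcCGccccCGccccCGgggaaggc

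The windows shown differ widely in CG content, and for Dlgap3 no window at the upstream end of the gene's span (127169204) was examined. The Shank3 window held 31 CG dinucleotides, more than 94.8% of the 32851 RefSeq windows of the same length, the Dlgap1 window shown held 9 (more than 59.7%) and that of Dlgap3 held 2 (more than 18.8%). The median over all windows was 6. RefSeq gives Dlgap1 a second start, whose window (chr17:70561497-70561746) held 7 (more than 53.7%). That window lies inside the span counted for the gene and is not printed. The GC box GGGCGG, searched on both strands, was found in the Shank3 window and in neither of the others, against 32.7% of all windows. RefSeq windows were matched for 7 of the 10 members, 13 windows in all, and those of Dlgap2, Shank1 and Shank2 were not matched.

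Counts were compared with edgeR's quasi-likelihood test, with line as a block, over the 14860 genes that passed a filter on low counts. All 10 members passed, Dlg2 only through its deleted libraries and Dlgap2 through control A and both deleted libraries. By an adjusted p under 0.05 over all genes, 3 members rose, Dlgap1, Dlgap3 and Shank3, and 0 fell. Over all tested genes 5.6% were called, 3.71% higher and 1.89% lower, and nothing is read from the members' count because this contrast chose them. The median log2 fold change was 0.62 over the members and 0.01 over all tested genes. In 8 members the deleted library was higher in both lines, as in 38.1% of all tested genes. The members' groups did not overlap in 6 cases, all higher in deleted cells. Of all tested genes, 22.9% were higher and 22.8% lower without overlap. Dlg2 is among these 6, among the 8 above and in the median. Because it passed the filter only through its deleted libraries, its higher level there was fixed by the filter. The fit has 1 residual degree of freedom per gene. Without a term for line, edgeR called 0 members (unadjusted p under 0.05 for 3 higher and 0 lower) and 0.0% of all genes, while DESeq2 with line as a term called the same 3 members and 8.75% of genes.

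**Figure D1:**
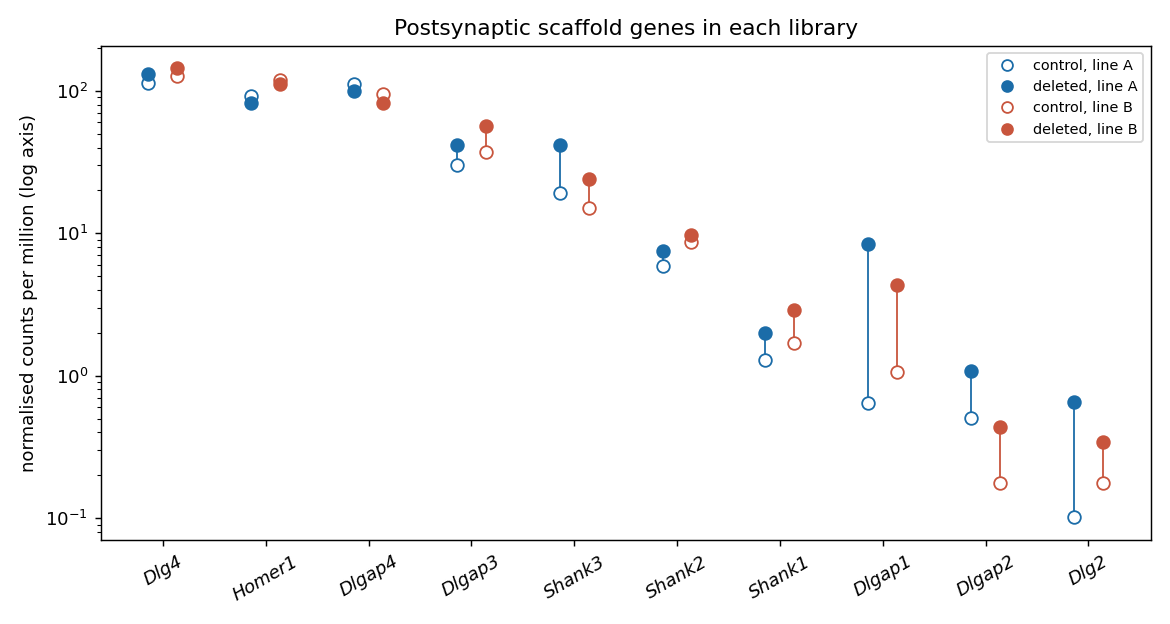
Normalised CPM (library-scaled counts, log axis) of the 10 scaffold genes in each library, ordered by mean control level. Open points are control and filled points deleted libraries, joined within line A (blue) and line B (red); Dlgap1 goes to 8.42 from 0.640 (line A) and to 4.35 from 1.06 (line B), while Dlg4, Homer1 and Dlgap4 lie between 81.5 and 144 in all libraries.

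The DLGAP family links PSD-95 to SHANK. Dlgap1 (chromosome 17, 69969073 to 70821413, mm10, plus strand) had 19 counts in control A, 36 in control B, 282 in deleted A and 139 in deleted B. Both deleted libraries were above both controls, and deleted A was the highest. In CPM (counts scaled to a common library size) its mean was 0.848 ± 0.295 in controls and 6.38 ± 2.88 in deleted cells (SD, n = 2 each). The fitted log2 fold change was 2.82 (SE 0.44). Within line A the deleted library was 13.2-fold higher (exact 95% interval 8.28 to 22.2) and within line B 4.11-fold (2.83 to 6.11). These intervals cover counting error only and do not overlap, and with 1 library per line and genotype the difference between the lines could not be tested against replicate error. In bulk RNA, more cells of a type and more RNA per cell cannot be told apart.

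Dlgap3 (chromosome 4, 127169204 to 127237022) is known from corticostriatal synapses. Controls A and B gave 893 and 1277 counts, deleted A and B 1385 and 1806. Deleted libraries were higher in both lines, by 1.38-fold in A and 1.51-fold in B, with a fitted log2 fold change of 0.53 (SE 0.08). Its lines moved by a similar ratio, unlike those of Dlgap1.

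Dlgap4 and Dlgap2 were not called. Dlgap4 (chromosome 2, 156613705 to 156764363), a broadly transcribed family member, gave 3333 and 3219 counts in the controls of A and B against 3345 and 2607 after deletion. Its ratio was below 1 in both lines, 0.890 in A (0.849 to 0.934) and 0.863 in B (0.819 to 0.909), but the groups overlapped. Dlgap2 (chromosome 8, 14095865 to 14847680) was near the limit of detection, with 15 and 6 control counts against 36 and 14 after deletion. Line A had a ratio of 2.13 (1.14 to 4.19) and line B one of 2.49 (0.897 to 7.89). These intervals cover counting error only and do not settle whether either line differed.

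Among the membrane-associated guanylate kinases, Dlg4 (chromosome 11, 70017085 to 70045532), the PSD-95 gene, gave 3384 and 4359 control counts against 4394 and 4599 after deletion. As normalised CPM these were 114 and 128 against 131 and 144, without overlap and not called (log2 fold change 0.19, SE 0.06). Dlg2 (chromosome 7, 91090706 to 92447003), the PSD-93 gene, gave 3 and 6 control counts against 22 and 11 after deletion. Line A had a ratio of 6.51 (1.95 to 34.0) and line B one of 1.95 (0.662 to 6.43), and the gene was not called. Upstream exons of Dlg2 in the GENCODE M21 annotation lie outside the span of the table, with 10969 of 16280 exon bases inside it. The high level of the one and the trace of the other were found in every library.

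The SHANK proteins form the deeper layer of the scaffold. Shank3 (chromosome 15, 89499623 to 89560261) gave 574 and 509 control counts against 1395 and 769 after deletion. Both deleted libraries were above both controls, with means of 32.9 ± 12.5 and 17.1 ± 3.10 CPM (SD, n = 2 each) and a fitted log2 fold change of 0.90 (SE 0.14). Deleted A was the highest library of Shank3, as it was of Dlgap1. The ratios were 2.16 (line A) and 1.61 (line B), and their exact 95% intervals for counting error do not overlap.

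Shank1 (chromosome 7, 44310253 to 44358351) gave 38 and 58 control counts against 67 and 92 after deletion, with ratios of 1.56 in line A and 1.69 in line B. Its groups did not overlap, and it was not called (log2 fold change 0.70, SE 0.24). Shank2 (chromosome 7, 144001928 to 144424494) gave 176 and 294 control counts against 253 and 311 after deletion. Its groups overlapped, and it was not called (0.26, SE 0.15). In the fit with line as a block the 3 SHANK genes had positive fold changes, and Shank3 alone was called. This is a description, since the same contrast chose the members, and whether the 3 genes differ from each other was not tested.

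Homer1 (chromosome 13, 93303757 to 93404129) encodes the long Homer proteins that join receptors to SHANK and a short form that is induced by activity and uncouples them. The count does not separate these forms. Control counts were 2723 (A) and 4080 (B) and those after deletion 2767 and 3546, with ratios of 0.902 in line A (0.855 to 0.951) and 0.926 in line B (0.885 to 0.969). The groups overlapped and the gene was not called (-0.13, SE 0.06).

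**Figure D2:**
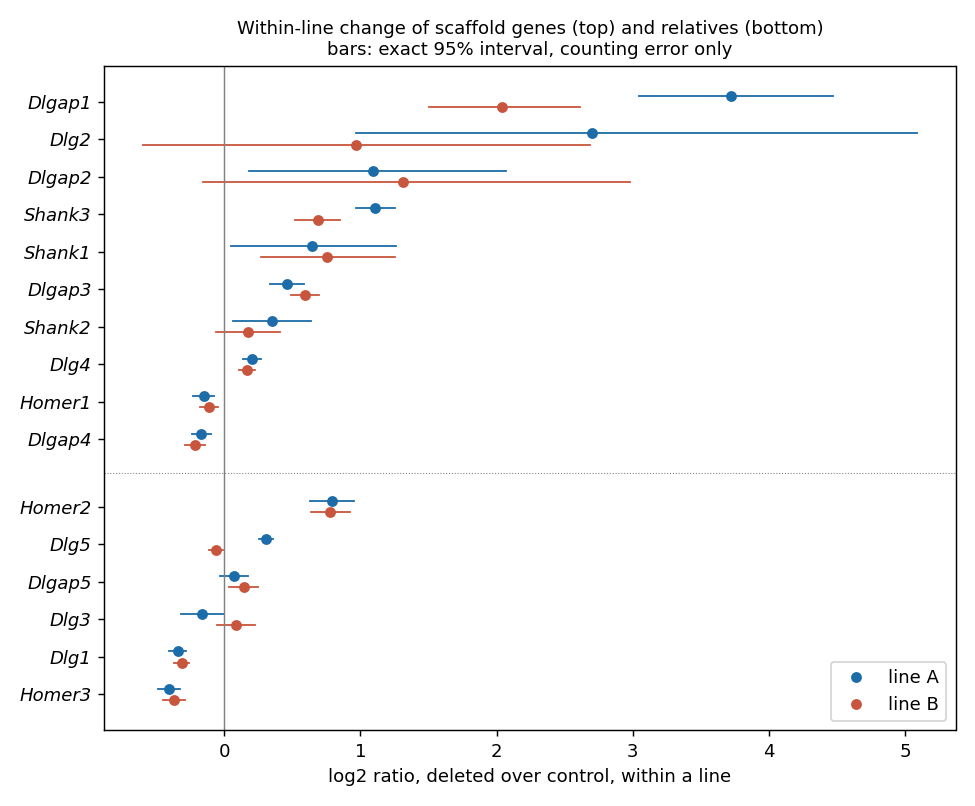
Log2 ratio of the deleted over the control library within line A (blue) and line B (red) for the 10 scaffold genes (top) and 6 relatives (bottom), with exact 95% intervals that cover counting error only. The lines of Dlgap1 (3.72 and 2.04) and of Shank3 (1.11 and 0.69) stand apart from each other, while those of Homer2 (0.79 and 0.78) lie together.

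Relatives of the members changed in both directions. Of the 6, 1 rose and 1 fell (33.3% called, against 5.6% of all genes), with a median log2 fold change of 0.04. Homer2, a paralog of Homer1, gave 478 and 642 control counts against 931 and 1033 after deletion (log2 difference 0.78, SE 0.10, edgeR adjusted p = 0.0286). It was higher in both lines. Homer3 gave 2758 and 2852 control counts against 2347 and 2074 after deletion (-0.39, SE 0.06, edgeR adjusted p = 0.0455), lower in both lines. Since 25.4% of its exon bases overlap Ddx49 on the opposite strand and the use of strand is not given in the sources used here, its count is uncertain. Homer1, Homer2 and Homer3 thus had a value of -0.13, a rise and a fall.

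Dlg1, the SAP97 gene, had a log2 fold change of -0.33 (SE 0.06, edgeR adjusted p = 0.0567), with both deleted libraries below both controls, at 4174 and 4268 counts against 4691 and 5648. Dlg3 (-0.03, SE 0.11, edgeR adjusted p = 0.863), Dlg5 (0.12, SE 0.11, adjusted p = 0.471) and Dlgap5 (0.11, SE 0.07, adjusted p = 0.366) were not called. Dlgap5 encodes a protein of the mitotic spindle, and Dlg5 one of cell polarity. Without a term for line, edgeR called 0 of the 6 relatives (unadjusted p under 0.05 for 1 higher and 2 lower).

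Partners of the scaffold were taken from lists of known postsynaptic proteins. Among 37 tested enzymes, adaptors and cytoskeletal proteins of the postsynaptic density, 5 rose and 2 fell, with a median of 0.06 (18.9% called, against 5.6% of all genes). Without a term for line, edgeR called 0 of them (unadjusted p under 0.05 for 6 higher and 2 lower). Anks1b, a PSD-95 binding adaptor, rose (log2 difference 1.03, SE 0.11, edgeR adjusted p = 0.0226). The kinase and anchor genes Camk2b (0.48, SE 0.08, adjusted p = 0.0417) and Akap5 (0.80, SE 0.14, adjusted p = 0.0471) also rose, as did the GTPase-activating gene Agap2 (0.66, SE 0.06, adjusted p = 0.0226). Sipa1l1, which encodes the PSD-95 binding protein SPAR, fell by 0.78 (SE 0.07, edgeR adjusted p = 0.0197), and Dbn1, the drebrin gene, fell by 0.60 (SE 0.10, adjusted p = 0.0471).

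Receptors and adhesion proteins that the scaffold holds moved in 1 direction where they were called. Of 18 tested, 5 rose and 0 fell (27.8% called, against 5.6% of all genes), with a median of 0.51. Without a term for line, edgeR called 0 (unadjusted p under 0.05 for 4 higher and 0 lower). Grm5, the metabotropic receptor bound by Homer, gave 7133 and 8324 control counts against 14726 and 15091 after deletion (log2 difference 0.91, SE 0.07, edgeR adjusted p = 0.0194). The AMPA receptor gene Gria2 had 7071 and 8399 against 20440 and 12708 (1.02, SE 0.17, adjusted p = 0.0443 by edgeR). Nlgn1 (0.80) and Nlgn3 (0.66), which encode neuroligins that bind PSD-95, also rose. Gria1 gave 2088 and 395 control counts against 8959 and 803 after deletion (1.58, SE 0.20, edgeR adjusted p = 0.0309). Its line difference in the same fit was -3.04 (log2, B minus A), and leaving out deleted A in a fit without a term for line gave -0.71 (adjusted p = 0.892).

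The inhibitory postsynapse, which uses another scaffold, was read for comparison. Of its 7 tested genes 3 rose and 0 fell (42.9% called, against 5.6% of all genes), with a median of 0.44. In the fit without a term for line edgeR called 0 of them (unadjusted p under 0.05 for 3 higher and 0 lower). Gphn, the gephyrin gene, rose by 0.42 on the log2 scale (SE 0.07, edgeR adjusted p = 0.0417), with 1932 and 2722 control counts against 2839 and 3527 after deletion. Called rises were present in genes of both kinds of postsynapse, and the lists were not tested against each other.

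Markers of the labelled cell type were present in all libraries, and among markers of other types edgeR's calls were mainly of astrocyte genes. All 6 neural stem cell markers were tested and edgeR called 0 of them (unadjusted p under 0.05 without a term for line for 1 higher and 0 lower). Nes was lower in both lines without overlap (log2 fold change -0.48, SE 0.09, edgeR adjusted p = 0.0536). DESeq2 with line as a term called Nes lower (adjusted p = 0.000359). Among the 6 markers, 4 had positive and 2 negative log2 fold changes. Their summed level was 6851 to 7582 CPM in controls and 5795 to 7060 in deleted cells. Of 8 astrocyte markers 6 rose (75.0% called, against 5.6% of all genes). Their summed level was 1613 to 1778 in controls and 3213 to 3323 in deleted cells. Slc1a3 made up most of that sum, at 1199 and 1383 CPM in controls and 2405 and 2612 in deleted cells. For these 8 genes edgeR without a term for line called 0 (unadjusted p under 0.05 for 6 higher and 0 lower). Neuronal markers were low, at 98.1 to 200 in controls and 55.6 to 95.2 in deleted cells, and of 7 tested 1, Syt1, fell. Syt1 made up most of that sum, at 170 and 72.0 CPM in controls and 61.4 and 25.9 in deleted cells, and the other 6 had no shared direction. Dcx, singled out after its values were seen, was at 1.25 and 4.93 CPM in controls and 3.85 and 8.31 in deleted cells and was not called (edgeR adjusted p = 0.0756). Oligodendrocyte lineage markers (2460 to 2869 and 2477 to 2569) had no gene called by edgeR. Olig1 and Olig2 made up most of that sum. Of the 7 tested, 5 had positive and 2 negative log2 fold changes. Cspg4 was higher in both lines without overlap (0.64, SE 0.13, edgeR adjusted p = 0.0572). DESeq2 with line as a term called it (adjusted p = 0.00316). Sox10 and Pdgfra were higher in line B, each by 2.37 on the log2 scale (edgeR adjusted p = 0.0122 and 0.00308). Microglial markers (10.4 to 11.2 over all libraries, with Cx3cr1 and Tmem119 at 0 in all libraries) had no called gene. The part of these cell types in the changes of Dlgap1, Dlgap3 and Shank3 was not tested.

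Levels were compared between genes as CPM per kilobase of annotated exon. In controls the order was Dlgap4 (12.2 ± 1.48), Dlg4 (9.12 ± 0.747), Homer1 (8.82 ± 1.66), Dlgap3 (7.47 ± 1.16), Shank3 (1.86 ± 0.338), Shank2 (0.676 ± 0.177), Shank1 (0.142 ± 0.0284), Dlgap2 (0.0554 ± 0.0378), Dlgap1 (0.0474 ± 0.0165) and Dlg2 (0.00851 ± 0.00326), each a mean and SD of 2 libraries. The values of Dlg4 and Homer1, of Homer1 and Dlgap3, and of Dlgap2 and Dlgap1 overlapped, so these neighbours did not differ beyond their spread. The 4 most abundant members thus belong to 3 families, and the least abundant to the DLGAP and DLG families as well.

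On annotated exon length, in deleted cells Dlgap3 (10.8 ± 2.36), Dlgap4 (10.7 ± 1.54) and Dlg4 (10.4 ± 0.668) overlapped at the top. Shank3 kept its rank of 5, at 3.58 ± 1.36. Dlgap1 reached 0.357 ± 0.161, above Shank1 (0.232 ± 0.0588) by mean but with overlapping values. The order depends on the length used. In controls the values of Dlgap4 and Dlg4 overlapped on the longest transcript (21.3 ± 2.59 against 19.1 ± 1.56). They also overlapped on exon bases inside the counted span (12.2 ± 1.48 against 10.9 ± 0.890). Like Dlg2, the genes Dlg4, Homer1 and Shank1 have annotated exon bases outside that span, with 11118 of 13251, 10508 of 11976 and 8293 of 10514 inside it. With the longest transcript as the length, Dlgap3 was below the other 3 abundant members, at 8.03 ± 1.25 in controls and 11.6 ± 2.54 in deleted cells, where Dlg4 was at 21.7 ± 1.40, Dlgap4 at 18.7 ± 2.68 and Homer1 at 16.9 ± 3.49. Dlgap3 overlapped none of these in either group on that scale. Dlgap1 was then above Dlgap2 in controls too by mean (0.118 against 0.0756), and in deleted cells above Shank1 without overlap (0.890 ± 0.402 against 0.248 ± 0.0630). Dlgap1 thus remained 1 of the less abundant scaffold genes in deleted cells.

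Line B was compared with line A over both genotypes, a contrast that was not used to choose the members. Of the 10 members 1 was called, against 10.1% of all tested genes. Homer1 was higher in line B by a log2 fold change of 0.40 (SE 0.06, edgeR adjusted p = 0.0311), with 91.7 and 82.6 CPM in line A against 120 and 111 in line B. Dlgap3 (0.38, SE 0.08, edgeR adjusted p = 0.0523), Shank3 (-0.59, SE 0.13, adjusted p = 0.0617) and Dlgap4 (-0.27, SE 0.06, adjusted p = 0.0678) were not called. Dlgap1 differed by -0.38 (SE 0.42, edgeR adjusted p = 0.588), with line B above line A in controls and below it in deleted cells. Without a term for genotype edgeR called 0 members (unadjusted p under 0.05 for 1 higher and 0 lower).

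The neighbours of Dlgap1 on chromosome 17 did not rise with it by this test. Of 22 other genes of the table within 1 Mb, 18 were tested; 0 rose and 1, Smchd1, which lies 523 kb away, fell (log2 fold change -1.96, SE 0.07, edgeR adjusted p = 0.0194). The median over the 18 was 0.08, and of all tested genes 5.6% were called. At an unadjusted p under 0.05, 1 was higher and 4 were lower, and DESeq2 with line as a term called 2, both lower. The nearest tested genes were Gm20703 (13.3 kb away, 0.64, SE 0.43, adjusted p = 0.371 by edgeR), the homeobox repressor gene Tgif1 (22.8 kb, -0.59, SE 0.12, adjusted p = 0.0565) and C230073G13Rik (32.4 kb, -0.25, SE 0.22, adjusted p = 0.489). Next were the myosin light chain genes Myl12b (-0.23, SE 0.07) and Myl12a (-0.35, SE 0.06) and Myom1 (0.40, SE 0.47), none of them called.

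**Figure D3:**
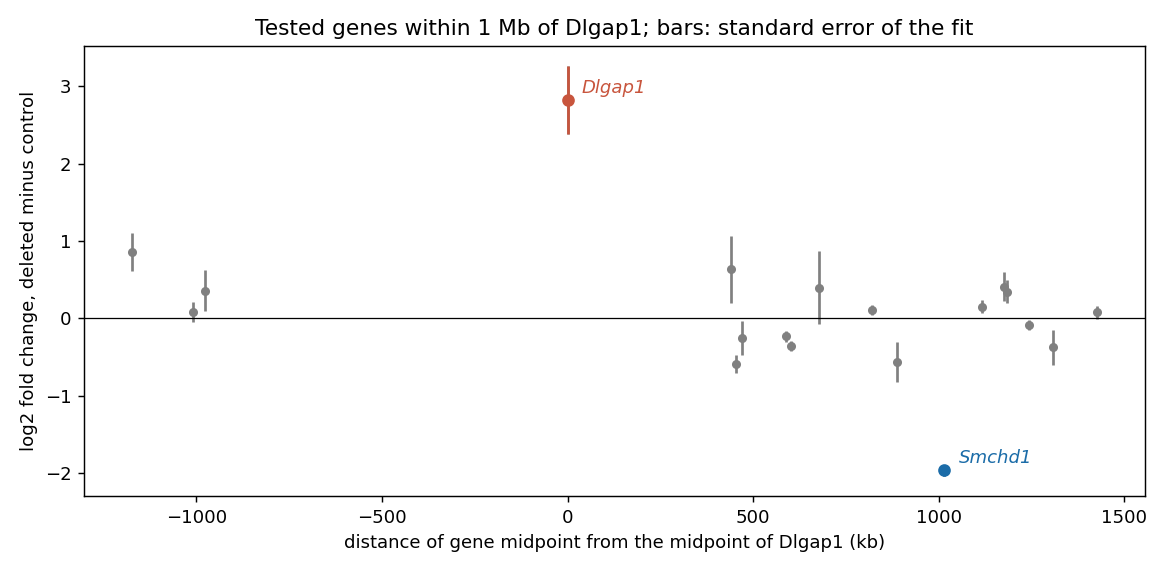
Log2 fold change, deleted minus control, of the tested genes within 1 Mb of Dlgap1, by distance of their midpoints in kb. Bars show the SE derived from the F statistic of the fit. Dlgap1 stands at 2.82 and Smchd1 at -1.96, and the other genes lie between -0.59 and 0.86.

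The genes whose pattern over the 4 libraries was closest to that of Dlgap1 were St6galnac5, a sialyltransferase gene, Synpr, which encodes the synaptic vesicle protein synaptoporin, and Gm872. Likeness was the Euclidean distance of centred log2(CPM + 0.5), which was 0.207, 0.331 and 0.427, the smallest of 12746 genes. Their fitted log2 fold changes were 2.21, 2.14 and 2.27, below the 2.82 of Dlgap1. The added 0.5 shrinks ratios at low levels, and the controls of Dlgap1 were at 0.640 and 1.06 CPM. St6galnac5 gave 329 and 490 control counts against 2487 and 1493 after deletion, and Synpr 192 and 245 against 1322 and 736. In both, as in Dlgap1, deleted A was the highest library and control A the lowest. The same contrast chose Dlgap1, and this likeness is a description.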

How the data were processed

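Raw counts per gene, whole numbers, were deposited by the authors in 1 table, of which the 4 columns of all aligned reads were used. Another 8 columns hold counts by parental genome; since column names give a group but no labelled sample, they were not used and the planned allele shares were not computed. The submitters' processing notes name mm10, TopHat2 2.0.12 and edgeR; for the read counter and strand setting the sources used here name nothing. The design text speaks of further lines, not analysed here.

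Groups follow the labels; the line number is in the column names only. Genes were tested with edgeR 4.0.16 (R 4.3.3; quasi-likelihood, TMM, filterByExpr with a minimum count of 10, Benjamini-Hochberg over all genes tested, threshold 0.05), with genotype and line as terms. Pairing comes from the protocol, by which lines were divided. Same-line libraries deviated together (r = 0.72 across 14860 genes, which are not independent replicates). Tested on simulated data, this fit made more calls among unchanged genes than the threshold allows. The fit without line made fewer such calls and also recovered fewer changes. Calls with an adjusted p just under 0.05 are therefore uncertain. With 2 libraries per group, p-values reflect only how these cultures vary. Each SE of a fitted log2 fold change is its absolute value divided by the square root of the quasi-likelihood F statistic. CPM use TMM-scaled totals, and exon lengths GENCODE M21 (mm10). Intervals cover counting error only.

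Members and lists were chosen with earlier results of these data known. Of 120 listed genes, 117 were found by symbol. All members and relatives were named, from other lists up to 6 called genes by p, up to 6 tested neighbours of Dlgap1 by distance, and 3 genes most like Dlgap1. Some genes that this rule names are not reported here. Alternatives were DESeq2 1.42.0, DESeq2 size factors, no filter, no term for line, each library left out, and other lengths, of which exon bases inside the table's span were chosen after seeing the data.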

Additional observations from a re-analysis of the deposited data

Results flagged for a closer look

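In 3 genes named above the deleted library was higher than the control in 1 line and lower in the other, and the difference between lines was not tested. Dlg3 had log2 fold changes of -0.16 in line A and 0.088 in line B, and Dlg5 had 0.31 and -0.060. Myom1, with 13 to 31 counts per library, had 1.08 and -0.35.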

How the results depend on the processing

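With the replicate block removed (genotype as the only term), edgeR called 0 members, 0 of all genes (unadjusted p under 0.05 for 1019 higher and 718 lower), 0 genes of the pathway lists (14 and 4) and 0 neighbours of Dlgap1 (0 and 3), and with line as the only term 0 members differed between lines. Leaving out each library in such fits, where the lone library of a group is assumed to vary like the others, gave 0 to 0 calls in each of these 5 counts. The fold changes of Dlgap1, Dlgap3 and Shank3 stayed positive in every fit. Among the members, relatives and named called genes, values that changed sign when 1 library was left out were the line differences of Dlgap1 (-2.08 to 2.06), Dlg2 (-1.33 to 1.32) and Shank3 (-1.09 to 0.0084), and the deleted against control values of Homer1 (-0.37 to 0.077), Shank2 (-0.0020 to 0.54), Dlg3 (-0.27 to 0.17), Dlgap5 (-0.0055 to 0.22) and Gria1 (-0.71 to 3.65). With no low-count filter 1802 of all genes, 3 members between lines and 3 neighbours of Dlgap1 were called, and DESeq2 called 2 members between lines and 2 neighbours; the cause was not tested. Members called between genotypes were the same 3 with DESeq2, with its size factors in edgeR and with no filter. The planned minimum on allele-assigned counts was not run. Depth limits Dlg2 and Dlgap2.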
